A study of Mus musculus with 6 samples.

Results

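The pore-forming and modifying subunits of voltage-gated potassium channels were described in whole mouse retina with and without Atrx, a chromatin remodeller. They were taken from the array annotation by symbol, as the Kcna, Kcnb, Kcnc, Kcnd, Kcng, Kcnh, Kcnq, Kcns and Kcnv genes that a probe set carried as its single symbol. This gave 38 of 41345 probe sets and 35 of 22180 named genes. Of these genes 32 had 1 probe set and 3 had 2.

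The knockout group held 3 male mice with the genotype Chx10Cre+/-;Atrx flox/y, and the wildtype group held 3 male littermates with the genotype Chx10Cre-/-;Atrx flox/y. Both groups therefore carry the floxed allele, and only the knockouts carry the Cre transgene, so an effect of the transgene and one of losing Atrx cannot be told apart. Chx10 is a gene of dividing retinal progenitors and, later, of bipolar cells. Retinas were taken at postnatal day 17, when loss of amacrine and horizontal cells peaks in these mice by the series' design text, and both eyes of an animal were pooled. RNA was measured on Affymetrix gene arrays. Values are deposited log2 signals per probe set, so a difference of 1 is a doubling.

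Voltage-gated potassium channels open on depolarization and return the membrane towards rest. Their subunits assemble as tetramers. Kcna genes encode low-threshold channels of axons and terminals, Kcnb genes slow delayed rectifiers, Kcnc genes the fast channels that let neurons fire rapidly, and Kcnd genes the A-type channels of dendrites. Kcnq genes encode the subunits of the M current, which muscarinic receptors suppress, and Kcnh genes the EAG, ERG and ELK channels. Kcng, Kcns and Kcnv subunits form no channel by themselves and modify Kcnb channels. In the retina Kcnc channels are known from starburst amacrine cells, and Kcnv2 is known from photoreceptors.

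Atrx itself had log2 values of 8.42, 8.72 and 8.33 in knockout retinas, against 9.04, 8.86 and 9.17 in wildtype retinas. The groups did not overlap, with a log2 change of -0.53 (SE 0.12, limma adjusted p = 0.115). Where its probes lie against the floxed part was not examined here. Array medians lay between 5.57 and 5.64, and arrays correlated with Pearson's r of 0.975 to 0.993 over the 15619 genes tested. The arrays of knockout 2 and wildtype 1 stood apart by lens RNA. The mean of 13 lens markers was 9.51 on knockout 2 and 10.24 on wildtype 1, and 5.03 to 5.42 on the other arrays.

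A gene was tested if its probe set reached a log2 value of 5 on at least 3 of the 6 arrays, and the brighter probe set stood for a gene with 2. A total of 32 of the 35 channel genes passed. Kcnh4, an ELK channel, stayed between 4.59 and 4.91 on the 6 arrays. Kcnq1, whose channel is best known from heart and epithelia, stayed between 4.75 and 5.25, and the silent subunit Kcns1 between 4.66 and 5.27. Signals of different probe sets do not rank transcripts, since probes bind unequally, so the genes are compared between groups only.

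No channel gene passed the threshold, an adjusted p under 0.05 in limma's test over all 15619 genes, which called 129 genes (0.826%; 0.346% lower and 0.48% higher in knockout). An unadjusted p under 0.05 was found for 12 of the 32 tested genes, 9 lower and 3 higher in knockout. Over all genes tested the shares at that level were 6.5% lower and 6.99% higher. The 3 knockout arrays lay below all 3 wildtype arrays for 8 channel genes and above them for 3, against 9.58% and 10.7% of all genes. Of the 32, 23 had log2 changes below 0, against 49.1% of all genes, and the median log2 change was -0.08, against 0.00 over all genes. The largest difference was 1.41-fold. These counts are over the genes that passed the filter, which a gene under the floor on more than 3 arrays could not do.

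These counts moved when single arrays were left out. The 9 lower genes became 5 without wildtype 1 and 5 without wildtype 2, when the share over all genes was 4.84% and 3.98%. The 3 higher genes became 1 without knockout 1, 0 without wildtype 1 and 0 without wildtype 2. The share over all genes was then 5.73%, 4.73% and 4.65%. Without knockout 2 and wildtype 1 together, the arrays rich in lens RNA, there were 10 lower and 0 higher genes. The shares over all genes were then 7.51% lower and 5.5% higher.

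**Figure D1:**
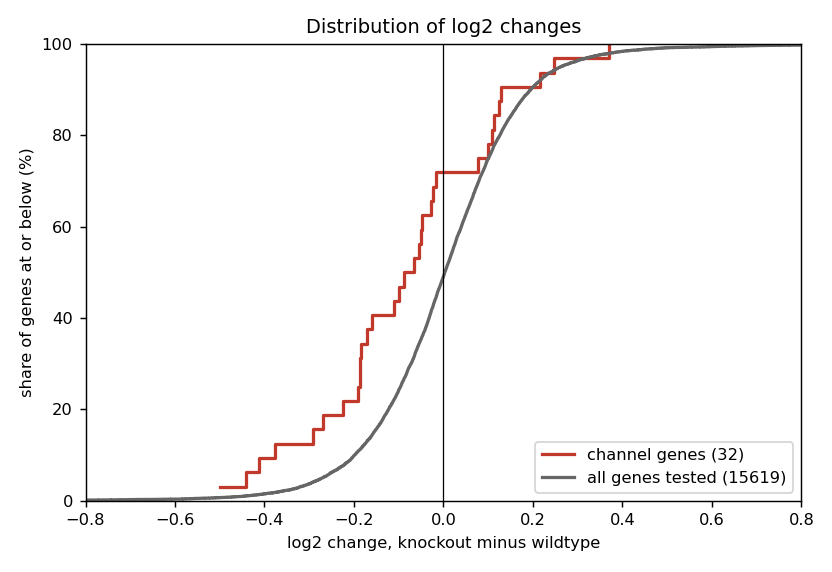
Cumulative share of genes (vertical axis, percent) at or below each log2 change, knockout minus wildtype (horizontal axis), for the 32 channel genes tested and for all 15619 genes tested. The channel curve lies to the left of the other over most of the negative range, where 23 of the 32 genes sit; the horizontal axis leaves out changes beyond 0.8.

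The M-current gene Kcnq3 and 3 other channel genes had the smallest adjusted p-values. Kcnq3 had log2 values of 6.44, 6.55 and 6.32 in knockout, against 6.85, 6.92 and 6.87 in wildtype retinas. All 3 knockout values lay below the narrow wildtype range. The log2 change was -0.44 (SE 0.08, adjusted p = 0.063, a 1.36-fold difference). Kcnq5, the other M-current subunit tested, had knockout values of 5.81, 6.09 and 5.81 and wildtype values of 5.97, 6.02 and 5.91. These overlapped, at a log2 change of -0.07 with a 95% interval of -0.29 to 0.16. Its second, dimmer probe set ran from 3.38 to 3.65 over the 6 arrays and was not tested.

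Among the EAG and ERG genes, Kcnh1, which encodes the first EAG channel, had 5.92, 5.97 and 6.07 in knockout, against 6.59, 6.57 and 6.30 in wildtype retinas. Its log2 change of -0.50 (SE 0.10, adjusted p = 0.071) was the largest of the 32 genes in size. Kcnh7, an ERG channel of the nervous system, had 6.95, 7.07 and 6.79 in knockout and 7.36, 7.30 and 7.40 in wildtype retinas. Again no values overlapped, and the log2 change was -0.41 (SE 0.09, adjusted p = 0.097). Kcnh2, the ERG channel known for cardiac repolarization, had 7.55, 7.66 and 7.61 in knockout, against 7.86, 7.86 and 7.79 in wildtype (log2 change -0.23, SE 0.07, adjusted p = 0.241). Kcnh5, the second EAG gene, had 8.72, 8.68 and 8.53 in knockout, against 8.84, 8.84 and 8.81 in wildtype (log2 change -0.19, SE 0.08, adjusted p = 0.361).

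Both EAG genes and 2 of the 3 ERG genes thus had knockout values below every wildtype value, as did 9.58% of all genes tested. The third ERG gene, Kcnh6, had the opposite sign, with 8.01, 8.06 and 8.02 in knockout and 7.90, 7.84 and 7.96 in wildtype retinas. The groups did not overlap, yet the 95% interval of its log2 change of 0.13 ran from -0.04 to 0.29. The 2 tested ELK genes, Kcnh3 and Kcnh8, had changes of 0.12 and -0.02 with overlapping groups.

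A-type channel genes had log2 changes of both signs. Kcnd3 had 6.67, 6.86 and 6.79 in knockout, against 7.11, 7.17 and 7.18 in wildtype retinas, with no overlap (log2 change -0.38, SE 0.08, adjusted p = 0.091). Kcnd2 had 8.50, 8.58 and 8.38 in knockout, against 8.28, 8.18 and 8.34 in wildtype retinas. Here the lowest knockout value lay just above the highest wildtype value, and the log2 change was 0.22 (SE 0.09, adjusted p = 0.330). Kcnd1 ran from 5.52 to 5.87 in knockout and from 5.70 to 5.93 in wildtype retinas, with a log2 change of -0.11 (95% interval -0.36 to 0.14).

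**Figure D2:**
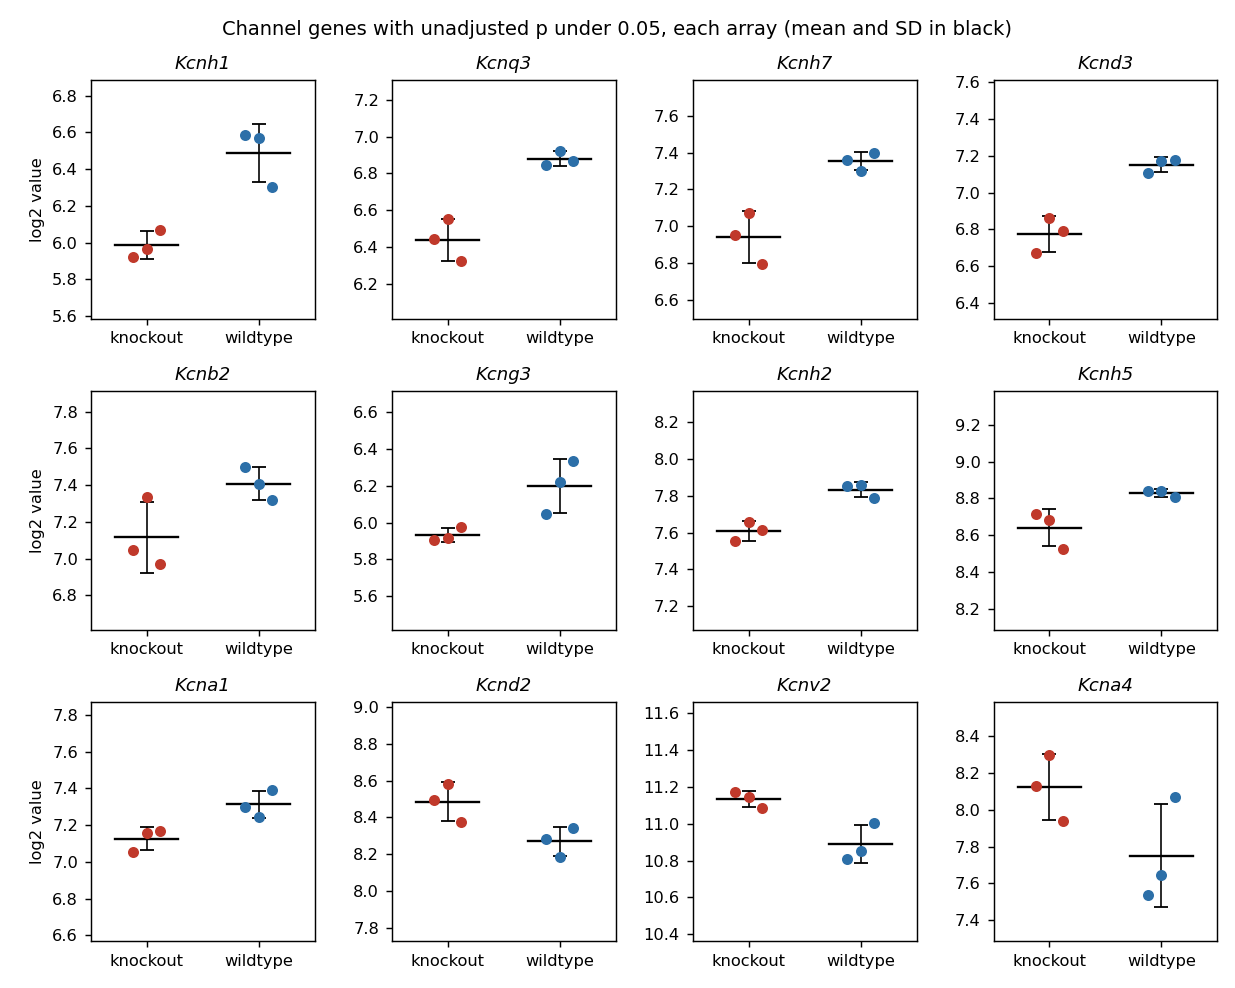
Log2 value (vertical axis, the same span in each panel) on each of the 3 knockout and 3 wildtype arrays for the 12 channel genes with an unadjusted p under 0.05, in order of their log2 change; points are arrays, black lines the mean and SD (n = 3 per group). The 3 knockout points lie below the wildtype points for Kcnh1, Kcnq3, Kcnh7, Kcnd3, Kcng3, Kcnh2, Kcnh5 and Kcna1 and above them for Kcnd2 and Kcnv2, while Kcnb2 and Kcna4 overlap.

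The start regions of the A-type pair and of Kcnh1 and Kcnh7 are shown, since they set genes of low adjusted p beside a gene with the opposite sign. RefSeq sequences on GRCm38.p6 were at hand for 24 of the 35 genes; Kcnq3 was not among them. Each run is the 250 bases before the annotated start, 5′ to 3′ on the gene's strand. Capitals mark E-boxes (CANNTG, bound by basic helix-loop-helix factors) and GC boxes (GGGCGG, bound by Sp-family factors), searched on both strands. They lie at chr3:105451640-105451889 (+) for Kcnd3, chr1:192190527-192190776 (+) for Kcnh1, chr2:63184288-63184537 (-) for Kcnh7 and chr6:21215096-21215345 (+) for Kcnd2.
Kcnd3: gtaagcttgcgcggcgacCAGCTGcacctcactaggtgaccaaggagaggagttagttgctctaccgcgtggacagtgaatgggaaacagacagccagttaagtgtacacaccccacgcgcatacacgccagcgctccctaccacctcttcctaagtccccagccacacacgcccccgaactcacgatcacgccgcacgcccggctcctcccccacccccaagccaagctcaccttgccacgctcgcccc
Kcnh1: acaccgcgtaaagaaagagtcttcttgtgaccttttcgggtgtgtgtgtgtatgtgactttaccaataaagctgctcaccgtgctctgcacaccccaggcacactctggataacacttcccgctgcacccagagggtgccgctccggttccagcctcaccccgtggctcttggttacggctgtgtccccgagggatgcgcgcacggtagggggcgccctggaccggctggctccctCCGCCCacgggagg
Kcnh7: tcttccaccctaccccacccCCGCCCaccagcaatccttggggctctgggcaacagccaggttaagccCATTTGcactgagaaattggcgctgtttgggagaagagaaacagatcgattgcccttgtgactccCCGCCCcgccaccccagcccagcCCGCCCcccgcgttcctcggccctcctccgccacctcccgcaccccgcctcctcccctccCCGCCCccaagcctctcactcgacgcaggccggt
Kcnd2: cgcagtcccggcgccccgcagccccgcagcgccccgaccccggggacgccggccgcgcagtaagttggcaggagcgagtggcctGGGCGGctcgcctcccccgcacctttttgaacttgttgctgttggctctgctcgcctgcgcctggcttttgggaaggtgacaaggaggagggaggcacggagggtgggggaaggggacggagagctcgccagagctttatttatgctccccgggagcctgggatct

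In these windows Kcnd3 held 1 E-box and 0 GC boxes, Kcnh1 held 0 and 1, Kcnh7 held 1 and 4, and Kcnd2 held 0 and 1. The CpG counts were 18, 17, 16 and 22 in the same order. Over the 29 annotated starts of the 24 genes, 17 windows held a GC box and 19 an E-box, against 32.74% and 66.22% of all 32851 windows. Some windows of Kcnc2 overlap and share an E-box. Counted by gene, 16 of the 24 held a GC box and 15 an E-box. The median CpG count was 14 in the channel windows and 6 in all windows. No channel window held TATAAA (the TATA box) or TGACGTCA (bound by CREB), which stood in 12.37% and 1.55% of all windows. TTCAGCACC, a half-site of the neuronal repressor REST, was in 0.3% of all windows and in 1 channel window, that of Kcnh6.

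Of the Kcna genes, Kcna4 and Kcna1 had an unadjusted p under 0.05, with opposite signs. Kcna4, a rapidly inactivating subunit, had 8.13, 8.30 and 7.94 in knockout, against 7.54, 7.65 and 8.07 in wildtype retinas. Wildtype 3 lay above knockout 3, so the groups overlapped at a log2 change of 0.37 (SE 0.15, adjusted p = 0.338). The gene's second probe set had a log2 change of 0.01 (95% interval -0.29 to 0.30), so its probe sets disagree, and the mean of both gave 0.19. Without both lens-rich arrays the change of Kcna4 was 0.18. Kcna1, the axonal subunit mutated in episodic ataxia, had 7.05, 7.16 and 7.17 in knockout, against 7.30, 7.25 and 7.39 in wildtype retinas (log2 change -0.19, SE 0.08, adjusted p = 0.359). Its groups did not overlap.

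In the RefSeq gene table Kcna5, Kcna1 and Kcna6 follow one another as neighbouring protein-coding genes, as do Kcna3, Kcna2 and Kcna10. Kcna5 had 7.99, 7.86 and 7.97 in knockout and 8.03, 8.03 and 7.83 in wildtype retinas, at a log2 change of -0.03 (95% interval -0.23 to 0.17). Kcna6 was at 0.08 on each of its probe sets. Kcna2, which pairs with Kcna1 in axons, was at -0.16 (95% interval -0.38 to 0.05), and Kcna3, known from lymphocytes as well as neurons, at -0.10. Kcna10 was at -0.06 and Kcna7, known from muscle, at -0.02, both with values near the log2 floor of 5. Among these neighbours only Kcna1 had groups that did not overlap. Of all genes tested, 9.58% lay lower and 10.7% higher in knockout without overlap.

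Among the delayed rectifier and fast channel genes none was called, and the intervals of the 3 tested Kcnc genes included 0. Kcnb2 had 7.05, 7.34 and 6.97 in knockout, against 7.50, 7.41 and 7.32 in wildtype retinas (log2 change -0.29, SE 0.11, adjusted p = 0.302). Knockout 2 lay inside the wildtype range. Kcnc1 ran from 6.38 to 6.78 in knockout and from 6.73 to 6.83 in wildtype retinas, with a log2 change of -0.18 (95% interval -0.43 to 0.06). It was -0.28 without knockout 2 and -0.08 without knockout 3. Kcnc2 ran from 6.75 to 6.95 in knockout and from 6.87 to 7.15 in wildtype retinas, at -0.17 (-0.40 to 0.06). Kcnc4, of the same family, had 7.43, 7.38 and 7.53 in knockout and 7.48, 7.49 and 7.52 in wildtype retinas, at -0.05 (-0.22 to 0.12).

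The silent subunits were mixed. Kcnv2, mutated in a human cone dystrophy, had 11.17, 11.15 and 11.09 in knockout, against 10.81, 10.85 and 11.01 in wildtype retinas (log2 change 0.25, SE 0.08, adjusted p = 0.252). Its groups did not overlap. Kcnv1 overlapped at -0.09 (95% interval -0.38 to 0.20). Kcng3 had 5.91, 5.91 and 5.98 in knockout, against 6.05, 6.22 and 6.34 in wildtype retinas (log2 change -0.27, SE 0.09, adjusted p = 0.263), again with no overlap. Kcng4 had 7.29, 7.29 and 7.31 in knockout and 7.23, 7.31 and 7.02 in wildtype retinas, at 0.11 (-0.09 to 0.32). Kcng1 was at 0.11 and Kcng2, with values near the log2 floor of 5, at -0.19, both with overlapping groups. Kcns2 had 6.27, 6.06 and 6.25 in knockout and 6.45, 5.93 and 6.35 in wildtype retinas, at -0.05 (-0.37 to 0.27), and Kcns3 was at 0.10.

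For the 20 tested genes with an unadjusted p of 0.05 or more, every 95% interval lay within 0.5 of 0 on the log2 scale, between -0.47 and 0.41. Only 3 of these intervals lay within 0.25 of 0, so for the others the data allow a difference of that size.

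**Figure D3:**
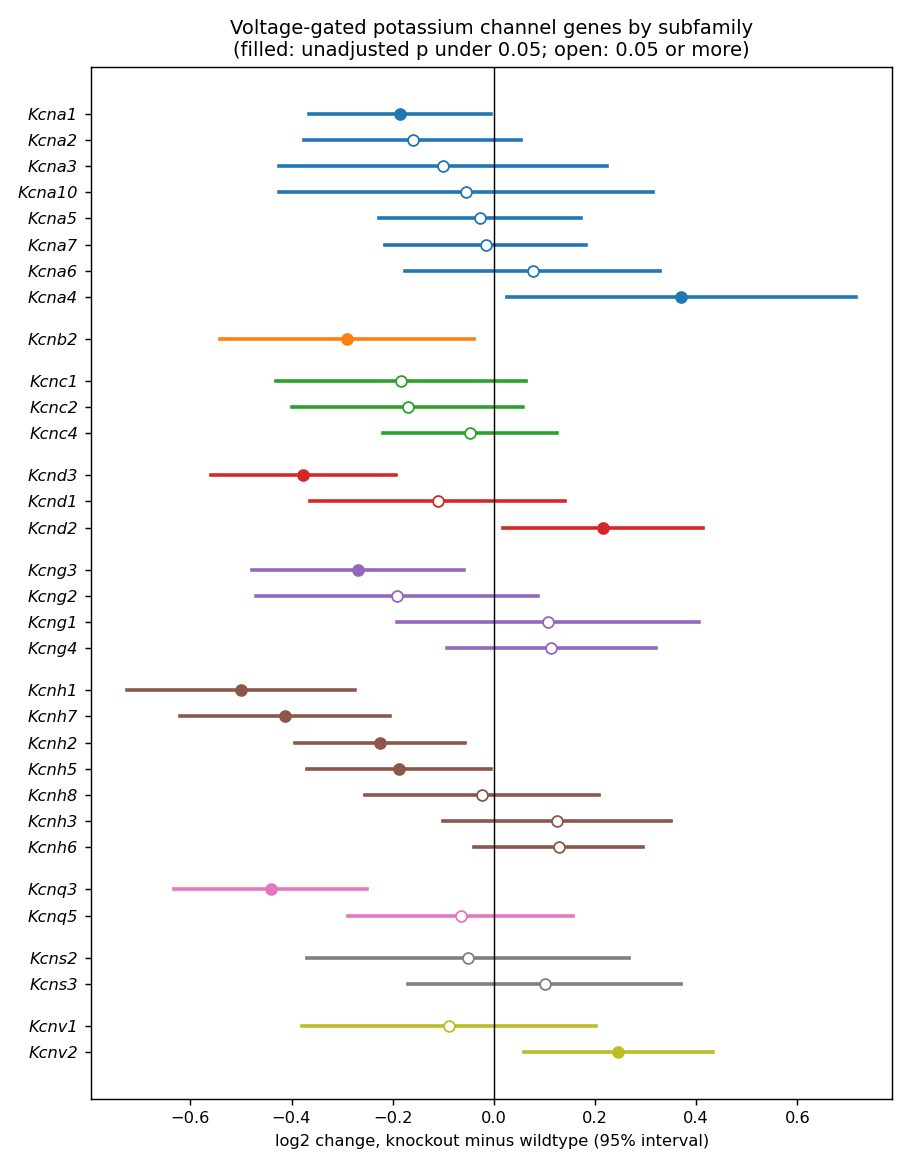
Log2 change, knockout minus wildtype (horizontal axis), with its 95% interval from limma for the 32 tested channel genes, grouped and coloured by subfamily; filled points mark an unadjusted p under 0.05. Kcnh1 lies furthest to the left at -0.50 and Kcna4 furthest to the right at 0.37.

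**Figure D4:**
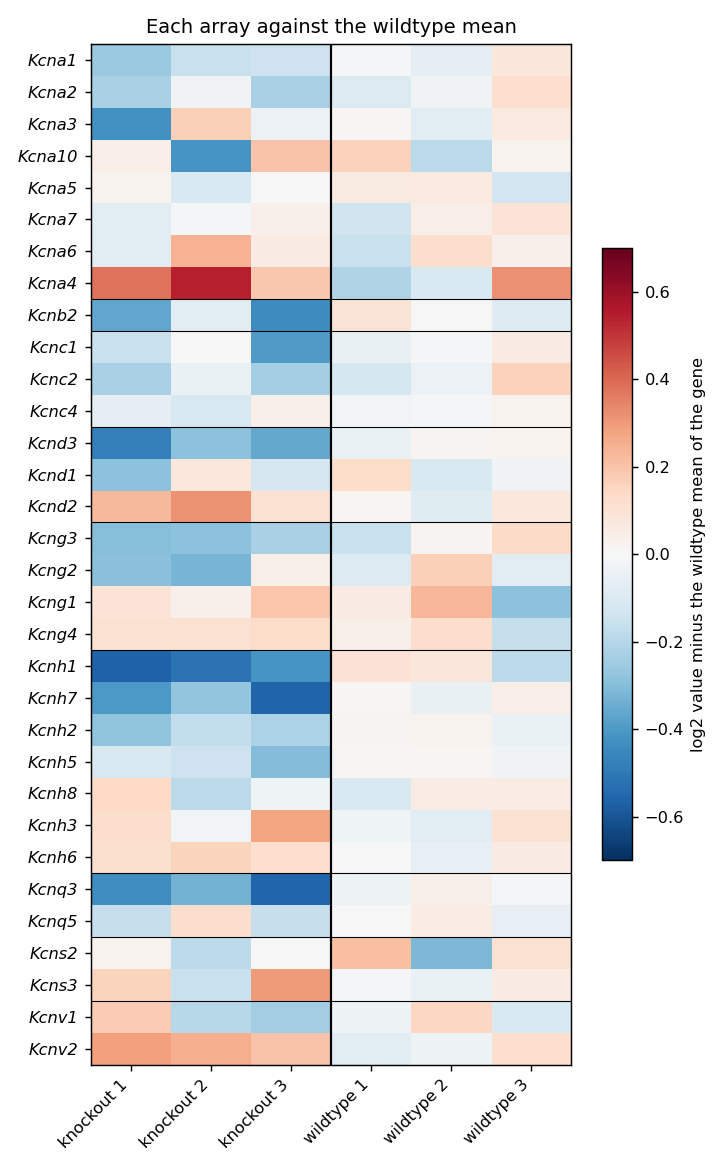
Log2 value minus the gene's wildtype mean (colour) for the 32 tested channel genes (rows, by subfamily) on the 3 knockout arrays and the 3 wildtype arrays (columns). Kcnd3, Kcnh1, Kcnh7 and Kcnq3 are below the wildtype mean on each knockout array, and Kcna4 varies among the wildtype arrays from 7.54 to 8.07.

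Kcnq3 passed the threshold in 5 of 17 alternative settings, with adjusted p-values from 0.031 to 0.272. Of these, 1 left out knockout 2 (0.047). The others were a log2 floor of 6 (0.031), a second quantile normalization (0.048), an intensity trend with robust spread (0.037) and array weights (0.043). Kcnh1 passed in 2, a log2 floor of 6 and the trend with robust spread, and its adjusted p ran from 0.037 to 0.290 over the 17. Kcnd3 passed in 1, the floor of 6 (0.049 to 0.324 over the 17). Kcnh7 passed in 1, the trend with robust spread (0.0497 to 0.290 over the 17). Thus the call of each of these 4 genes depended on the setting.

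Of 15 auxiliary subunits listed, 13 were tested and 1, Dpp6, was called lower, against 0.346% of all genes tested. Dpp6, a transmembrane partner that speeds A-type channels, had 8.62, 8.72 and 8.57 in knockout, against 9.03, 9.10 and 9.11 in wildtype retinas. The log2 change was -0.44 (SE 0.08, adjusted p = 0.048). Over 17 alternatives the adjusted p ran from 0.010 to 0.223, and the call was lost in 11, among them the removal of any single array but knockout 2 (0.120 to 0.223). Kcnab3, a cytoplasmic beta subunit of Kcna channels, had 6.17, 6.52 and 5.95 in knockout, against 6.81, 6.91 and 7.12 in wildtype retinas. On its brightest probe set the change of -0.74 (SE 0.15, adjusted p = 0.079) was larger in size than that of any channel gene. Its adjusted p ran from 0.027 to 0.260 over the alternatives. With the mean of the gene's probe sets the change was -0.32 (adjusted p = 0.199). That was smaller in size than the changes of Kcnh1, Kcnq3, Kcnh7 and Kcnd3, so the ranking of Kcnab3 depended on the probe sets used.

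Kcne2, a small membrane partner of several channels, was at -0.25 (adjusted p = 0.195), and Kcnip1, a calcium-binding partner of A-type channels, at -0.20 (0.303). The other A-type partners included Kcnip2 at -0.17, Kcnip3 at 0.02, Kcnip4 at 0.18 and Dpp10 at 0.00. In all, 4 of the 13 were lower and 0 higher at an unadjusted p under 0.05, against 6.5% and 6.99% of all genes tested, and the list median was -0.03.

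**Figure D5:**
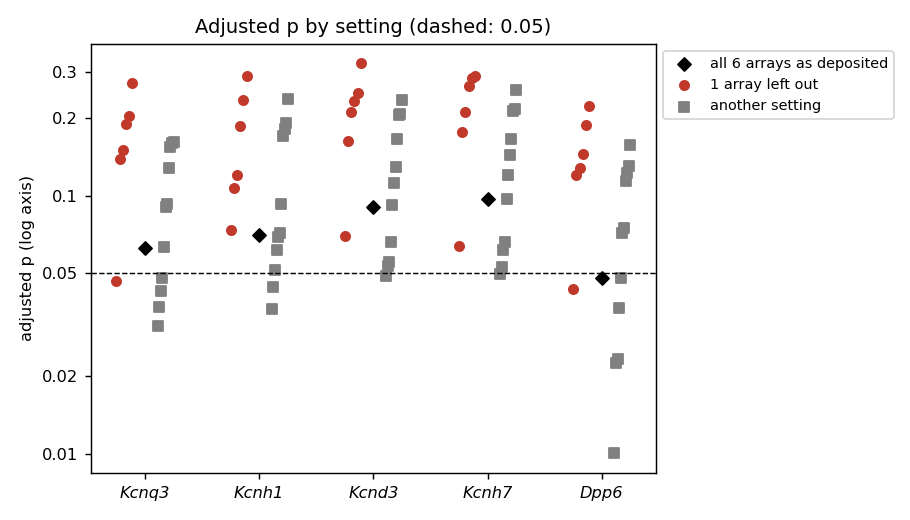
Adjusted p from limma (vertical log axis) for Kcnq3, Kcnh1, Kcnd3, Kcnh7 and Dpp6 with all 6 arrays as deposited (diamonds), with 1 array left out (circles) and in the other settings (squares); the dashed line is the threshold of 0.05. With all 6 arrays as deposited only Dpp6 lies below the line, and every gene shown has points on both sides of it.

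No member of the other potassium channel and partner lists passed the threshold. Their counts at an unadjusted p under 0.05 stand against 6.5% lower and 6.99% higher over all genes tested. Of 14 anchoring and clustering proteins 2 were lower and 0 higher at an unadjusted p under 0.05, with a median of -0.13. They were Cntn2 at -0.20 (adjusted p = 0.270), an adhesion molecule of the axonal Kcna complex, and Ank3 at -0.31 (0.299), the ankyrin that gathers channels at the axon initial segment. Next in order of p were Dlg3 at -0.22 and Cntnap1 at -0.18. Of 12 inward rectifiers 2 were lower and 0 higher, Kcnj14 at -0.33 (adjusted p = 0.139) and Kcnj2 at -0.25 (0.302), with Kcnj5 at -0.19 and Kcnj9 at -0.23, and the list median was -0.10. Of 11 two-pore leak channels 2 were lower and 0 higher, Kcnk15 at -0.28 (0.264) and Kcnk2 at -0.49 (0.265), with Kcnk10 at -0.16 and Kcnk9 at -0.11, and the list median was -0.05.

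Of 11 calcium- and sodium-activated genes 4 were lower and 2 higher at that level, with a median of -0.09. Kcnmb2, a beta subunit of the large-conductance channel, was at 0.46 (adjusted p = 0.099), while the small-conductance channels Kcnn3 and Kcnn2 were at -0.30 (0.157) and -0.26 (0.175). Kcnn1, of the same small-conductance family, had the opposite sign, at 0.22 (0.278), with all knockout arrays above the wildtype arrays. Kcnma1, of the large-conductance channel like Kcnmb2, was lower, at -0.19 (0.331), with all knockout arrays below the wildtype arrays. Kcnt1, a sodium-activated channel, was at -0.34 (0.177).

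The mean levels of the amacrine and horizontal cell marker lists lay lower on each knockout array than on any wildtype array, though most single markers were not called. The mean log2 value of 11 GABAergic amacrine markers was 7.25 to 7.48 in knockout and 7.62 to 7.75 in wildtype retinas. Of the 11, 3 were called lower. At an unadjusted p under 0.05, 8 of the 11 were lower and 1, Npy, was higher, at a log2 change of 0.45. Of all genes tested, 6.5% were lower and 6.99% higher at that level, while 0.346% were called lower and 0.48% higher. The starburst mean over 6 markers was 6.02 to 6.26 in knockout and 6.55 to 6.64 in wildtype retinas, with 2 of 6 called lower. The glycinergic mean over 5 markers was 6.41 to 6.48 in knockout and 6.66 to 6.80 in wildtype retinas, with 2 of the 4 tested called lower. The horizontal cell mean over 7 markers was 6.50 to 6.70 in knockout and 6.74 to 6.78 in wildtype retinas, with 0 of 6 tested called. In whole retina, fewer cells of a type and less RNA per cell cannot be told apart. The part of these cells, and of those whose markers follow, in the channel values was not tested.

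The rod marker mean, over 9 genes, was 11.64 to 11.67 in knockout and 11.46 to 11.56 in wildtype retinas, on the same side as Kcnv2, with 0 of 9 called. Ganglion cell markers (8.51 to 8.60 in knockout, 8.61 to 8.67 in wildtype) and rod and ON bipolar markers (8.79 to 8.87 in knockout, 8.93 to 9.06 in wildtype) were on the low side, with 0 called in either list. The cone mean was 8.59 to 8.76 in knockout and 8.63 to 8.77 in wildtype retinas, with 1 of 11 called higher. Of all genes tested, 0.48% were called higher. The cone bipolar mean was 7.76 to 7.92 in knockout and 7.79 to 7.86 in wildtype retinas, and the Muller glia mean 9.95 to 10.09 in knockout and 9.98 on each wildtype array. Muscle markers stayed between 5.11 and 5.38 on the 6 arrays and cornea markers between 4.83 and 5.25, near the floor of 5. Pigment epithelium markers ran from 8.04 to 9.18 in knockout and from 8.77 to 9.34 in wildtype retinas. Microglia markers were at 6.09 to 6.19 in knockout and 6.18 to 6.19 in wildtype retinas, and vessel markers at 8.29 to 8.41 in knockout and 8.35 to 8.42 in wildtype retinas.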

How the data were processed

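RNA of whole retina was measured on 6 Affymetrix arrays, 3 per genotype, from 100 ng of RNA each. The deposited values are log2 signals per probe set made by the authors with RMA (background correction, quantile normalization, probe summary), per the submitters' processing notes; its version and the annotation build were not given in the sources used here. Quantile normalization hides a change in total RNA. Depth does not apply to arrays; their number limits the precision (median SE 0.095). Of 41345 probe sets, 23521 had 1 symbol, 1814 several and 16010 none in the annotation used here; 23328 matched RefSeq gene IDs (GRCm38.p6), used for names, neighbours and start regions.

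Genes passing the log2 floor were fitted with limma 3.58.1 in R 4.3.3 (lmFit, eBayes, genotype only, 2-sided), with Benjamini-Hochberg adjustment over 15619 genes. For 3 arrays against 3 the smallest exact permutation p is 0.1. Changes are knockout minus wildtype. The labels describe each sample as both eyes of a mouse and do not number the animals or litters, so p-values measure the spread between these samples. The procedure was tested on simulated data. The 17 alternatives were other floors, normalizations, spread models, weights, a replicate block, probe set choices, arrays left out and a lens covariate.

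The channel genes, partner and marker lists and settings were chosen with earlier results of these data known. Values on every array are given for channel genes with an unadjusted p under 0.05 and the brightest of each subfamily. Kcnq5 and Kcnh6 were added after their values were seen. Up to 4 genes of each partner list are named by smallest p, with Kcnn1, Kcnma1, Npy and further A-type partners added likewise. Figures were drawn with matplotlib 3.10.9.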

Additional observations from a re-analysis of the deposited data

How the results depend on the processing

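With 3 arrays per group, the counts moved when single arrays were left out. Why a count differed between settings was not tested. The count of channel genes called was 0 with the settings of the report. It was 1 with array weights, 1 with a second quantile normalization and 3 with an intensity trend and robust spread. It was 3 with a log2 floor of 6 (11709 genes tested), and 0 to 1 with 1 array left out. The 129 genes called over all genes became 282 with an intensity trend and robust spread and 209 with a floor of 6. They became 74 with no floor (22180 genes), 74 with all 25961 probe sets and 68 with the replicate block. They were 34 without knockout 2 and wildtype 1 together, and 25 to 138 with 1 array left out. At an unadjusted p under 0.05, the 9 lower genes became 5 to 11 with 1 array left out. The share of all genes was then 3.98% to 9.24%. The 3 higher genes became 0 to 3, beside a share of 4.65% to 8.83%. There was 1 higher gene with the replicate block (5.15% of all genes) and 0 without both lens-rich arrays (5.5%). The median log2 change of the tested channel genes, -0.08, was -0.16 with a floor of 6 (23 genes), -0.11 without both lens-rich arrays, and -0.14 to -0.079 with 1 array left out. Same-numbered samples did not deviate together (r = -0.38 to -0.06). The highest r, 0.39, was that of knockout 2 with wildtype 1, the lens-rich arrays. These values therefore cannot show whether the numbers pair samples. With the replicate block no channel gene was called.

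Of 529 values of single channel genes over the 17 alternatives, 498 kept direction and side of the threshold, 9 passed it and 22 changed sign, all in 8 genes that were not called. With 1 array left out the log2 change ran from -0.23 to 0.062 for Kcna3, -0.086 to 0.012 for Kcna7, -0.18 to 0.12 for Kcna10, -0.095 to 0.013 for Kcna5, -0.0079 to 0.15 for Kcna6, -0.10 to 0.055 for Kcnh8, -0.21 to 0.054 for Kcns2 and -0.037 to 0.22 for Kcng1. Without both lens-rich arrays it was 0.20 for Kcna10, 0.046 for Kcna5, -0.086 for Kcna6, 0.0014 for Kcnh8 and 0.12 for Kcns2, and with array weights 0.014 for Kcnh8. Genes near the floor of 5 have compressed differences.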
